A study of Mus musculus with 6 samples.

Results

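The nuclear genes of the mitochondrial respiratory chain and of ATP synthase were followed through endoderm differentiation of mouse embryonic stem cells (ESCs). Members were all genes whose symbol begins with Nduf, Uqcr, Atp5 or Cox4 to Cox8, together with Sdha, Sdhb, Sdhc and Sdhd, which gave 92 of the 24054 genes in the deposited tables. They comprised 7 core subunits, 29 accessory subunits and 7 assembly factors of complex I, 4 genes of complex II, 8 of complex III, 20 of complex IV and 16 of ATP synthase. The remaining member was Atp5sl, which RefSeq names Dmac2 and which serves complex I assembly despite its symbol. Atp5s, which RefSeq names Dmac2l, was kept among the 16 ATP synthase genes.

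The cells were a double knock-in (DKI) line, heterozygous for a Foxa2-Venus fusion and homozygous for a Sox17-Cherry fusion, so that every population carried both reporter alleles and came from the same line. d0 cells were undifferentiated and carried neither reporter signal at sorting. d3F cells, gated for Foxa2-Venus without Sox17-Cherry, came from 3 days in endoderm medium with Wnt3a and Activin A, and d5FS cells, gated for both reporters, from 5 days. The study's methods describe total RNA depleted of ribosomal RNA, sequenced from 2 samples of each population that were independent biological replicates. Its sample list instead names an mRNA and a total RNA library for each population. The p-values measure the spread between these samples, which would include any difference of library type.

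The respiratory chain passes electrons from NADH through complex I and from succinate through complex II to ubiquinone, then through complex III and cytochrome c to complex IV, which reduces oxygen. Complexes I, III and IV pump protons across the inner mitochondrial membrane, and ATP synthase lets them flow back while it makes ATP. Most subunits are encoded in the nucleus and a few in the mitochondrial genome. Of the symbols searched for the mitochondrially encoded subunits, 0 were found in the tables used here, so the values below describe nuclear genes only.

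Total expected counts per library lay between 16457729 and 22768686, and the members took between 1.06% and 1.41% of them. CPM below means expected counts scaled to 1000000 per library after TMM, which corrects library size for differences in RNA composition. TPM means the deposited RSEM transcript abundances scaled to the same total, which are also divided by transcript length. The summed CPM of 7 pluripotency markers was 1316 and 2948 in d0, then 885.2 and 469.3 in d3F and 172.5 and 138.4 in d5FS. That of 7 definitive endoderm markers was 5.22 and 7.28, 171.0 and 269.7, and 630.9 and 1145. Both lists followed the labels, but the endoderm list includes Foxa2 and Sox17, whose reporters set the sorting gates. Part of its rise was therefore tied to the gates. Foxa2 is on the mesendoderm list as well. The 6 mesendoderm markers summed to 12.1 to 31.9 CPM in d0, 388.1 to 443.4 for d3F and 278.7 to 326.1 in d5FS. The 7 extraembryonic endoderm markers summed to 129.2 to 164.2, 134.0 to 323.4 and 661.4 to 666.2 CPM, the 4 neuroectoderm markers to 23.6 to 205.3, 168.6 to 236.4 and 59.1 to 110.2, and the 6 blood and vessel markers to between 10.1 and 32.7 in all libraries. These last sums hide single genes, since Sparc made up most of the extraembryonic sum and Nes most of the neuroectoderm sum. By the edgeR test used below, 5 of the 7 extraembryonic markers were higher in d5FS than in d0 at an adjusted p under 0.05. Among blood and vessel markers Gata1 was higher by this rule and Etv2 and Pecam1 lower. Of all genes, 12.5% were higher and 10.7% lower. The part of other cell types in the results below was not tested, and in bulk RNA fewer cells of a type and less RNA per cell cannot be told apart.

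Subunit c of ATP synthase forms the rotor ring in the membrane, and its genes Atp5g1, Atp5g2 and Atp5g3 encode the same mature protein behind different import peptides. The ends of their coding sequences, which encode the mature protein, are shown because the counts of these genes are reported separately below. Each runs to the stop codon, from GENCODE M21 on GRCm38, with capitals at positions that differ among the 3 genes.
Atp5g1: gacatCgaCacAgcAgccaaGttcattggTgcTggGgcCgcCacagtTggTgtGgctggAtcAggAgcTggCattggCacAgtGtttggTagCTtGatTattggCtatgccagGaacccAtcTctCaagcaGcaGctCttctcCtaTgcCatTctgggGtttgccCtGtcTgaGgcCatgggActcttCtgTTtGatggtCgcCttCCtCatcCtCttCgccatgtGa
Atp5g2: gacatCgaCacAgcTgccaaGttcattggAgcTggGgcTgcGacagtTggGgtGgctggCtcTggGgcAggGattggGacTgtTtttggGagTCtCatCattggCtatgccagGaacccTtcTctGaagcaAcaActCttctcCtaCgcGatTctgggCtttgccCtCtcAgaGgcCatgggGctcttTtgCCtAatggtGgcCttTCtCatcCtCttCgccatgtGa
Atp5g3: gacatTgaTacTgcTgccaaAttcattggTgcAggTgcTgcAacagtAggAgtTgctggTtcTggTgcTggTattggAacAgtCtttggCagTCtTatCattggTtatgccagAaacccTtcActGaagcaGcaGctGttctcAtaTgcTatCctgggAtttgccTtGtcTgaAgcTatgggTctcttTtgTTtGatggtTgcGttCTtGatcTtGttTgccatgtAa
These bases lie, with introns between them, on the minus strand at chr11:96073104-96073635 for Atp5g1, chr15:102663014-102665166 for Atp5g2 and chr2:73908593-73909296 for Atp5g3. Atp5g1 differed from Atp5g2 at 34 positions (85.1% identity) and from Atp5g3 at 46 positions (79.8%), and its longest identical run with them was 21 and 11 bases. All expected counts of these genes were whole numbers within 0.005, while fractional counts, which RSEM gives when reads are shared between genes, occurred for Atp5f1, Atp5j, Cox4i1, Cox7c, Ndufa13, Ndufs1, Ndufs5 and Uqcrc2.

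The members changed little between d0 and d3F. Of the 92 members, 88 passed the filter on low counts and were tested. None reached an adjusted p under 0.05 in edgeR's quasi-likelihood test (Benjamini-Hochberg), against 4.7% of all 14539 genes tested, 1 member had an unadjusted p under 0.05, as did 20.6% of all genes, and the DESeq2 Wald test called 1, Ndufa4l2. The fitted log2 fold change lay within 0.5 of 0 for 83 of 88 members (94.3%) and for 53.3% of all genes. Its median was -0.05 over the members and -0.01 over all genes.

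From d3F to d5FS the members again gave no call, against 1.54% of all genes, with 4 members and 18.1% of all genes at an unadjusted p under 0.05 and 0 calls of members by the DESeq2 Wald test. The median log2 fold change was -0.06 over the members and 0.01 over all genes, and 69 of 88 members (78.4%) lay within 0.5 of 0, against 53.0% of all genes. The smallest adjusted p in edgeR's quasi-likelihood test, 0.213, belonged to Sdha. The comparisons share the d3F samples, and their values stand side by side only.

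Over the whole course from d0 to d5FS, 4 of 88 members (4.55%) were called, against 23.3% of all genes. Ndufs1, Atp5g1 and Atp5sl fell, against 10.7% of all genes called lower, and Ndufa6 rose, against 12.5% called higher. Each of the 4 also passed an absolute log2 fold change of 1, which 22.8% of all genes did together with the adjusted p. The libraries of d5FS lay wholly above those of d0 for 12 members, as they did for 32.2% of all genes, and wholly below for 24 members, as for 30.5% of all genes. The median log2 fold change was -0.10 over the members and 0.02 over all genes. With plain library totals in place of TMM these medians were 0.02 and 0.13, so the sign of the members' median depended on the scaling. Its distance from the median of all genes was -0.12 with TMM and -0.11 with plain totals, but -0.02 with a length offset and 0.09 in a fit of genes under 1000 bases. That distance was -0.37 and -0.22 without d0 replicate 1 or d5FS replicate 2, and 0.07 and 0.10 without d0 replicate 2 or d5FS replicate 1, so neither its size nor its sign was stable.

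**Figure D1:**
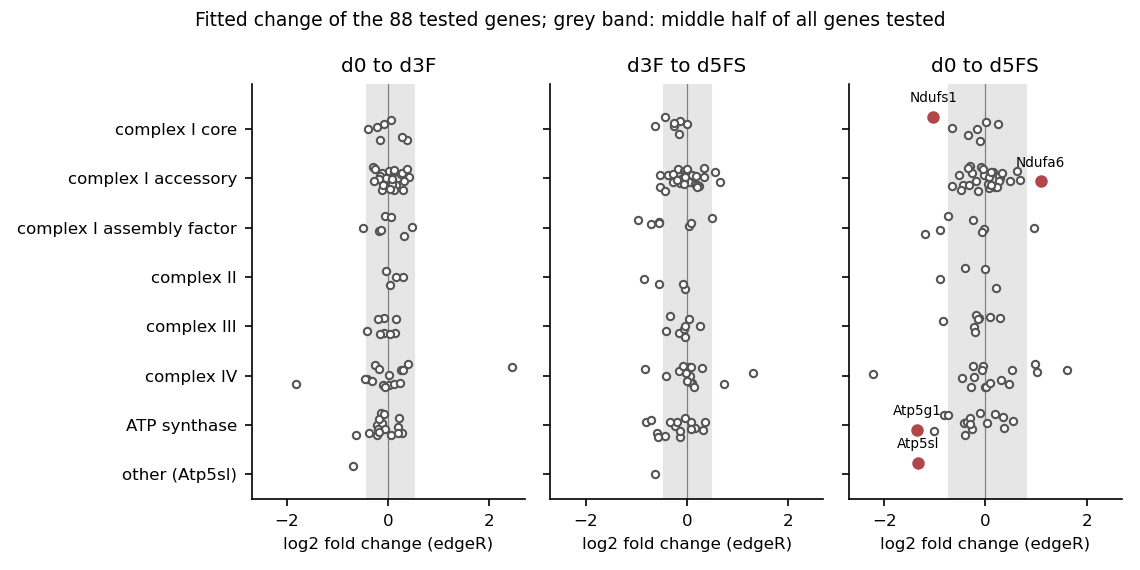
Fitted log2 fold change (horizontal axis) of the 88 tested members by complex (vertical axis) in the 3 comparisons, with filled points for genes called at an adjusted p under 0.05 and a grey band over the range from the lower to the upper quartile of all genes tested. Most members sit inside the band, and filled points appear in the d0 to d5FS panel for Ndufs1, Ndufa6, Atp5g1 and Atp5sl.

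The calls changed when single libraries were left out, which also leaves fewer residual degrees of freedom. From d0 to d5FS, no member was called without d3F replicate 1, d3F replicate 2 or d5FS replicate 1, Atp5g1 was called without d5FS replicate 2, Ndufa6 and Cox7a1 were called without d0 replicate 2, and 5 members (Atp5g1, Atp5sl, Ndufs1, Ndufaf2 and Cox7b2) were called without d0 replicate 1. Cox7b2 failed the filter with all libraries and passed here through d0 replicate 2, its highest library, so its call was built into the filter. The fitted log2 changes kept their direction in these fits, from -1.77 to -1.02 for Atp5g1, -1.63 to -0.97 for Atp5sl, -1.14 to -0.93 for Ndufs1 and 0.82 to 1.40 for Ndufa6. The fits called 0 members when only d0 and d5FS were used or when the DESeq2 threshold was a log2 fold change of 1. The DESeq2 Wald test called 8. Here and elsewhere, counts of calls under alternative fits other than the block stand without the share of all genes called. Such counts describe the fits and cannot be read as a result about the members. A replicate block, which adds a term for replicate number, gave 16 members (18.2%) from d0 to d5FS, against 37.6% of all genes. Beside the 4 genes called without it, these were Atp5a1, Atp5b, Atp5j, Cox7a2l, Ndufaf2, Ndufaf3, Ndufaf4, Ndufb3, Ndufb4, Ndufv1, Sdha and Uqcrc1. Unless another fit is named, statements on calls and thresholds refer to the fit without this block.

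Complex I takes up electrons from NADH, and its core subunits carry the flavin and the iron-sulfur clusters. Ndufs1, which holds iron-sulfur clusters of the electron entry module (chr1:63143592-63176822, GRCm38.p6), had 163.9 and 182.9 CPM in d0, then 132.7 and 129.8 in d3F and 90.2 and 79.1 in d5FS. The 3 populations did not overlap and followed each other downwards. The fitted log2 change of d5FS over d0 was -1.03 ± 0.27 (SE, n = 2 per population; adjusted p = 0.0278, edgeR's quasi-likelihood test). With plain library totals this call was lost and Cox7a2l was called instead, giving 2 members higher and 2 lower. With TMM and no replicate block, no other core gene was called in any comparison. The block added Ndufv1 from d0 to d5FS. Ndufv1, the flavin-binding subunit, had 110.5 and 196.8 CPM in d0 and 72.7 and 123.0 in d5FS, which overlapped (log2 fold change -0.65 ± 0.41, SE). Ndufs3, Ndufs7, Ndufs8 and Ndufv2 had log2 fold changes from d0 to d5FS of -0.11, 0.25, -0.34 and 0.01.

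Accessory subunits surround the core and are needed for its assembly and stability. Ndufa6, an accessory subunit of the LYR protein family (chr15:82350139-82354291), was the one member called higher. It had 45.5 and 67.3 CPM in d0, then 74.1 and 76.7 in d3F and 121.6 and 117.7 in d5FS. Its populations did not overlap and stepped upwards. The fitted log2 change of d5FS over d0 was 1.09 ± 0.30 (SE; adjusted p = 0.0321, edgeR's quasi-likelihood test). Among the 29 accessory genes, 16 had a positive and 13 a negative fitted value, with a median of 0.06. Ndufb4 had the next highest value, 0.68 ± 0.39 (SE), with 43.6 and 82.2 CPM in d0 and 79.2 and 121.6 in d5FS, which overlapped.

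Assembly factors help to build complex I without remaining in it, and their levels were low. Their median TPM per library was between 4.22 and 11.8, against 28.8 to 58.9 for core genes. None was called by edgeR's quasi-likelihood test on all 6 libraries without a replicate block. With the block, Ndufaf2, Ndufaf3 and Ndufaf4 were called from d0 to d5FS. Ndufaf2 had 11.1 and 19.5 CPM in d0, then 8.97 and 12.6 in d3F and 6.30 and 6.94 in d5FS, and its d5FS libraries lay below all others (log2 fold change from d0 -1.20 ± 0.41, SE; adjusted p = 0.0644, edgeR's quasi-likelihood test). Ndufaf3 lay the other way, with 13.2 and 14.8 CPM in d0 and 19.2 and 35.5 in d5FS (0.97 ± 0.37, SE; adjusted p = 0.092 in the same edgeR test). Atp5sl (chr7:25619414-25625550) had 30.0 and 47.0 CPM in d0, then 23.7 and 23.6 in d3F and 13.0 and 17.5 in d5FS. Here too the 3 populations were apart, and the fitted log2 change of d5FS over d0 was -1.33 ± 0.35 (SE; adjusted p = 0.0279, edgeR's quasi-likelihood test).

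Complex II, succinate dehydrogenase, also works in the citric acid cycle. Sdha, its flavin-binding catalytic subunit, had 177.5 and 229.4 CPM in d0, then 179.2 and 214.6 in d3F and 87.8 and 131.0 in d5FS. The d5FS libraries lay below the other 4. Without a replicate block the change from d0 missed the threshold (log2 fold change -0.90 ± 0.32, SE, adjusted p = 0.0752, edgeR's quasi-likelihood test). The iron-sulfur subunit Sdhb and the membrane anchors Sdhc and Sdhd had values of -0.01, 0.21 and -0.40, and Sdhd was lower in both d5FS libraries than in d0.

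Complex III transfers electrons from ubiquinol to cytochrome c. None of its 8 genes was called by edgeR's quasi-likelihood test without a replicate block. The block added Uqcrc1 from d0 to d5FS. Uqcrc1, a large core subunit, had the lowest value, with 252.3 and 389.0 CPM in d0, then 205.8 and 274.5 in d3F and 135.8 and 224.4 in d5FS (log2 fold change from d0 -0.83 ± 0.37, SE; adjusted p = 0.135, edgeR's quasi-likelihood test). Its d5FS libraries lay below d0 and overlapped d3F. The other core subunit, Uqcrc2, and the Rieske iron-sulfur protein gene Uqcrfs1 had values of 0.08 and -0.19.

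Complex IV, cytochrome c oxidase, has several subunits with alternative genes, and the broadly expressed one predominated in each pair examined. On the TPM scale Cox4i1 lay between 335.6 and 495.5 and Cox4i2 between 0.0 and 0.72, Cox6b1 between 209.9 and 401.2 and Cox6b2 between 3.05 and 8.08, and Ndufa4 between 187.3 and 463.8 and Ndufa4l2 between 0.12 and 1.33. Cox7a2 lay between 104.4 and 225.2 TPM and the muscle-type Cox7a1 between 15.2 and 37.7. Cox6a1, Cox7b and Cox8a had at least 86.5, 58.0 and 103.9 TPM, while their counterparts Cox6a2, Cox7b2, Cox8b and Cox8c failed the filter. Cox6a2 had 2 counts over all libraries, and Cox8b and Cox8c had 1 each. Cox7b2 had 6 and 17 counts in d0, then 2 and 0 in d3F and 0 in both d5FS libraries.

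None of the 16 complex IV genes tested was called by edgeR's quasi-likelihood test with TMM, while Ndufa4l2 and Cox7a2l were called under alternatives named above. Cox7a2l, which joins complexes III and IV in supercomplexes (chr17:83501917-83514333), had 123.6 and 173.9 CPM in d0, then 140.9 and 224.0 in d3F and 242.2 and 363.3 in d5FS. The d5FS libraries were above the other 4 (log2 fold change from d0 1.03 ± 0.37, SE; adjusted p = 0.0751, edgeR's quasi-likelihood test). Ndufa4l2, known as a hypoxia-responsive relative of Ndufa4, had the smallest adjusted p of all members from d0 to d3F. It had 0.351 and 0.308 CPM in d0, then 1.5 and 2.17 in d3F and 0.964 and 1.09 in d5FS. Both later populations lay above d0 at a very low level (d0 to d3F log2 fold change 2.45 ± 0.61, SE; adjusted p = 0.0591, edgeR's quasi-likelihood test). Cox4i2 had the lowest fitted value from d0 to d5FS, -2.23 ± 1.19 (SE), at or below 0.82 CPM in every library. Cox4i2 passed the filter through d0 and Ndufa4l2 through the later populations, where each was higher, so their directions were tied to the filter. Cox7a1 had 3.68 and 12.4 CPM in d0 and 13.9 and 17.8 in d5FS (0.98 ± 0.54, SE).

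**Figure D2:**
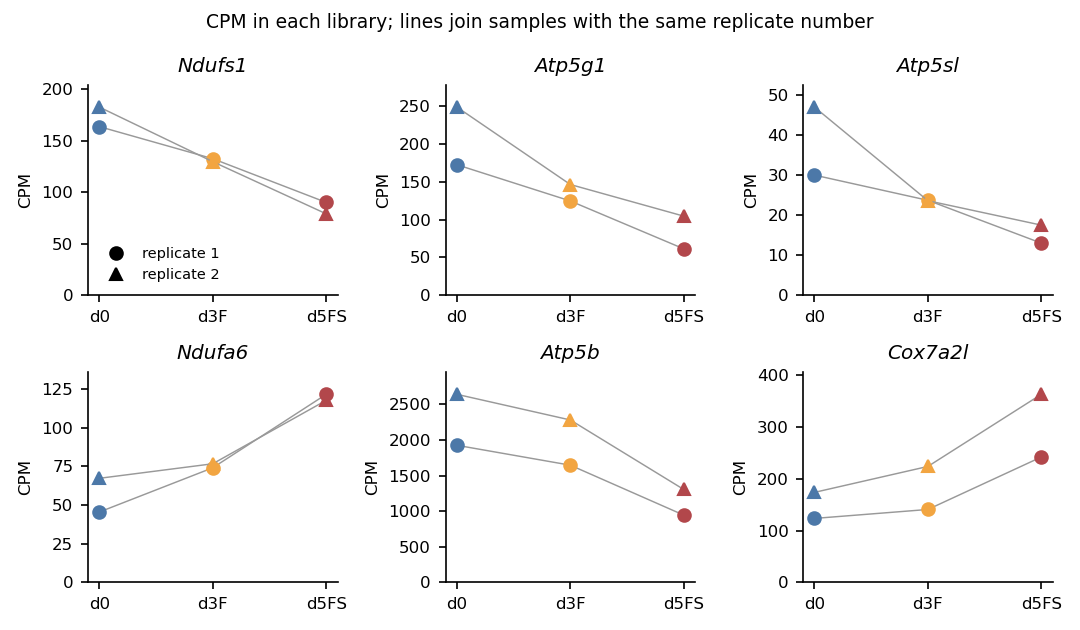
CPM (vertical axis, from 0) in each population (horizontal axis) for the 4 called members and for Atp5b and Cox7a2l. Atp5b and Cox7a2l missed the threshold in the fit without a replicate block. Circles mark replicate 1, triangles mark replicate 2, and lines join equal replicate numbers. In all 6 panels both d5FS libraries lie on one side of both d0 libraries, below for Ndufs1, Atp5g1, Atp5sl and Atp5b and above for Ndufa6 and Cox7a2l.

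ATP synthase had the highest summed level of the complexes and the lowest median change, -0.30 from d0 to d5FS on the log2 scale, with 11 of its 16 genes negative and 1 called. The highest of the 16 values, 0.54 ± 0.50 (SE), belonged to Atp5s, which lay between 1.39 and 2.3 TPM. Atp5g1 (chr11:96072793-96075694) had 172.8 and 249.2 CPM in d0, then 124.8 and 146.6 in d3F and 61.4 and 104.7 in d5FS. The populations did not overlap and stepped downwards. The fitted log2 change of d5FS over d0 was -1.35 ± 0.36 (SE; adjusted p = 0.0298, edgeR's quasi-likelihood test). The other subunit c genes were not called, with values of 0.35 ± 0.28 for Atp5g2 and -0.37 ± 0.30 for Atp5g3 (SE).

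Since the mature product is the same, the share of each gene in the summed TPM of the 3 was computed within each library, a measure chosen after these values were seen and given without a test. Atp5g1 made up 21.2% and 26.2% in d0, then 14.7% and 15.5% in d3F and 8.77% and 12% in d5FS. Atp5g2 made up 43.4% and 41.4%, 52.1% and 48.6%, and 63.6% and 57.5%. Shares of Atp5g1 stepped down and those of Atp5g2 stepped up without overlap between populations, and a share within a library does not depend on library scaling. Atp5g3 made up 35.4% and 32.4% in d0, then 33.2% and 35.9% in d3F and 27.7% and 30.5% in d5FS, so that its d5FS shares lay below the other 4.

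**Figure D3:**
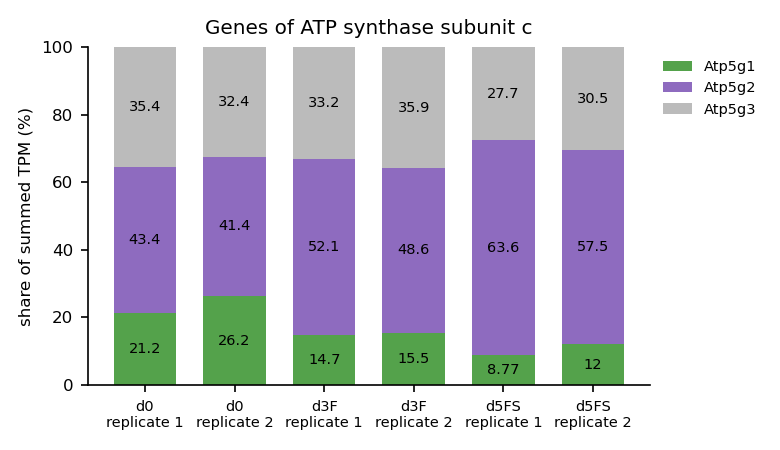
Share of the summed TPM of Atp5g1, Atp5g2 and Atp5g3 (vertical axis, percent) in each of the 6 libraries (horizontal axis). Atp5g1 goes from 21.2% and 26.2% in d0 to 8.77% and 12% in d5FS, and Atp5g2 from 43.4% and 41.4% to 63.6% and 57.5%.

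The catalytic head of ATP synthase is built from alpha and beta subunits, encoded by Atp5a1 and Atp5b, around the gamma shaft encoded by Atp5c1. Atp5b (chr10:128083307-128090388) had 1926 and 2642 CPM in d0, then 1647 and 2282 in d3F and 945.2 and 1306 in d5FS. Its d5FS libraries lay below all others. Without a replicate block its change from d0 did not pass the threshold (log2 fold change -1.02 ± 0.36, SE, adjusted p = 0.0729, edgeR's quasi-likelihood test). Atp5a1 had 1221 and 1755 CPM in d0, then 1085 and 1461 in d3F and 758.5 and 940.3 in d5FS, again lowest in d5FS (-0.81 ± 0.35, SE; adjusted p = 0.122 in the same edgeR test). Atp5c1 overlapped between d0 and d5FS (-0.27 ± 0.32, SE). Atp5j, for coupling factor 6 of the stalk, had 61.0 and 67.7 CPM in d0 and 37.8 and 38.8 in d5FS (-0.75 ± 0.28, SE; adjusted p = 0.0824 in the same edgeR test). With the block, Atp5a1, Atp5b and Atp5j were called from d0 to d5FS and Atp5c1 was not, beside 37.6% of all genes called.

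Summed over its 16 genes, ATP synthase had 5570 and 7518 CPM in d0, then 5025 and 6647 in d3F and 3715 and 5007 in d5FS. The log2 ratio of d5FS to d0 was -0.59, -0.58 within replicate 1 and -0.59 within replicate 2, and by TPM it was -0.60, with -0.89 and -0.31 within replicates 1 and 2. Atp5a1 and Atp5b made up 44.9% to 58.5% of the sum. Split into these 2 genes and the other 14, a division made after the values were seen, the log2 ratio was -0.93 for Atp5a1 and Atp5b and -0.22 for the rest.

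On the CPM scale the sums of the other groups had smaller ratios. From d0 to d5FS the log2 ratio of summed CPM was -0.35 for complex I core, -0.34 for complex II, -0.21 for complex I assembly factors, -0.18 for complex III, 0.01 for complex IV and 0.09 for complex I accessory genes. By TPM the ratio was -0.54 for complex I core, -0.50 for complex II, -0.47 for assembly factors and -0.41 for complex III, which lay nearer to the -0.60 of ATP synthase. Complex IV and the accessory genes were at -0.36 and -0.20 by TPM, so their direction depended on the scale.

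**Figure D4:**
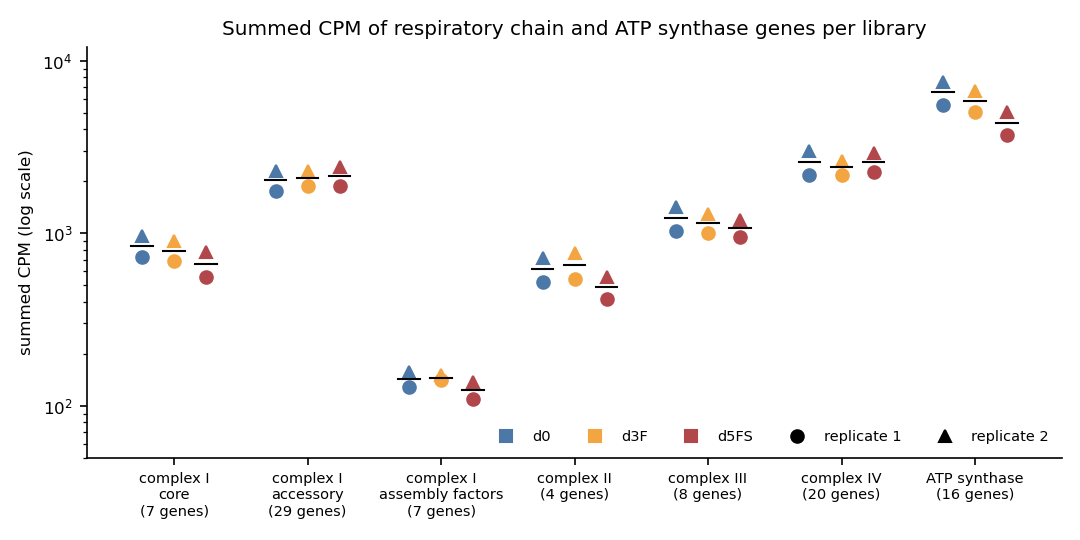
Summed CPM (vertical axis, log scale) of each group of members (horizontal axis) in the 6 libraries, coloured by population, with circles for replicate 1, triangles for replicate 2 and a bar at the mean. ATP synthase goes from 5570 and 7518 CPM in d0 to 3715 and 5007 in d5FS, and on this scale replicate 2 lies above replicate 1 in every group and population, the reverse of the order by TPM.

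Replicates of 1 population differed in a direction that most members shared and that depended on the scale. Replicate 2 exceeded replicate 1 in log2 CPM for 76 of 88 members in d0, 72 in d3F and 72 in d5FS, with median differences of 0.37, 0.28 and 0.40, whereas the medians over all genes were 0.00, -0.01 and 0.02. In all 3 populations it was higher for 61 of 88 members (69.3%) and for 24.7% of all genes, and Ndufab1, Ndufaf4, Ndufs4 and Uqcrq were lower in replicate 2 throughout. These differences are larger than the median change of the members between populations. By TPM the order turned, with summed values of all members of 13965 in replicate 1 and 8625 in replicate 2 of d0, then 14133 and 10395 in d3F and 8836 and 7586 in d5FS, and replicate 1 was higher in every complex too.

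The members are short, with a median effective length of 480.8 bases against 2618 for all genes tested, and 69 of 92 are under 1000 bases, as are 11.3% of all genes. Among all genes the d0 replicate difference had a median of 0.81 below 300 bases, 0.37 from 300 to 500 bases and -0.33 above 4000 bases. Members of 300 to 500 bases had a median of 0.31, near that of all genes of their length, while the 7 members of 2000 to 4000 bases had 0.52 against -0.03. A list of RNAs without a poly(A) tail summed to 43920 CPM in d0 replicate 1 and 127450 in replicate 2, then 43249 and 86104 in d3F and 62198 and 77942 in d5FS. The sum was thus higher in replicate 2 of each population as well. Most of it came from Rmrp and Rpph1, at 65426 and 52285 CPM in d0 replicate 2. Among single genes of the list, Terc in d3F and d5FS and Hist2h3b in d3F were lower in replicate 2. The study's sample list gives 1 mRNA and 1 total RNA library per population without tying either to a replicate number, and the part of library type in these values was not tested.

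**Figure D5:**
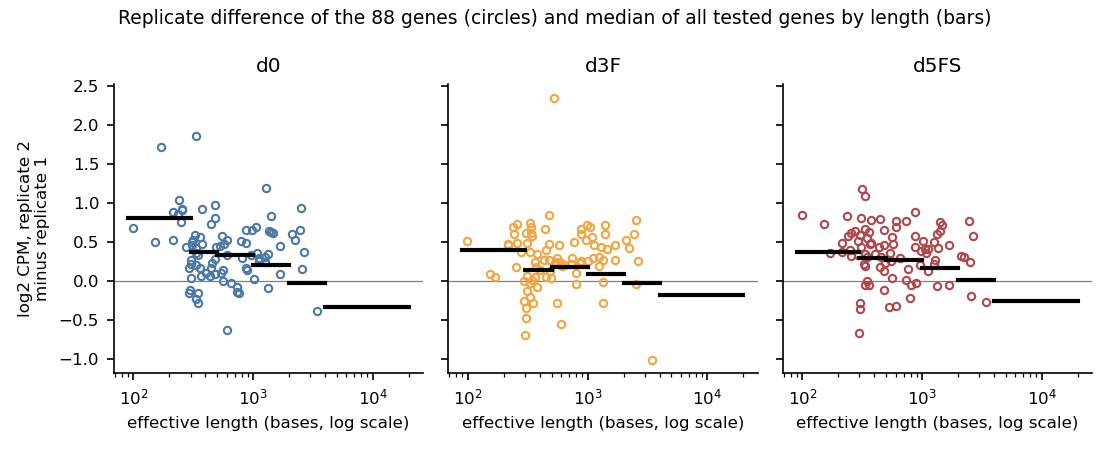
Difference in log2 CPM between replicate 2 and replicate 1 (vertical axis) against effective length in bases (horizontal axis, log scale) in each population, with circles for the 88 tested members and bars for the median of all tested genes by length. Most circles lie above 0, with medians of 0.37, 0.28 and 0.40. The bars descend with length except in d3F, where they step up from 0.15 at 300 to 500 bases to 0.19 at 500 to 1000 bases.

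Neighbouring transcripts limit single genes. Exons of 25 of the 92 members overlap another gene in GENCODE M21, 23 of them on the opposite strand, and the library kit does not mark strand. Among the called genes this concerns Ndufs1, and no overlap was found for Atp5g1, Ndufa6 or Atp5sl. Of genes called under alternatives, it concerns Atp5a1, Atp5j, Ndufaf3 and the very lowly expressed Ndufa4l2, which overlaps Shmt2 on the opposite strand.

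Genes outside the member list that serve the same pathway were described by lists. From d0 to d5FS the median log2 fold change was -0.695 for other subunits and carriers and -0.04 for other assembly factors. It was -0.77 for mitochondrial DNA expression and -0.76 for nuclear regulators, against 0.02 for all genes and -0.10 for the members, without a test of the lists. The list of other nuclear subunits and carriers had 11 genes tested. From d0 to d5FS, 0 of them were called higher and 4 lower, beside 12.5% and 10.7% of all genes. The 4 were the testis-type cytochrome c gene Cyct, the ADP/ATP carriers Slc25a5 and Slc25a31, and Mtfp1, which is itself neither subunit nor carrier. Slc25a31 was at 1.36 and 1.23 CPM in d0 and at most 0.115 CPM elsewhere, so it passed the filter through d0 alone and its calls were built into the filter. Slc25a5 had 645.5 and 1346 CPM in d0, then 578.8 and 863.8 in d3F and 216.7 and 422.0 in d5FS, which lay below both other populations. Of 37 other assembly factors, Cmc1 was called higher and Acad9, Ecsit and Cox11 lower, a smaller share in each direction than the 12.5% and 10.7% of all genes. Of 19 genes for mitochondrial DNA expression, the polymerase gene Polg was called higher, and the RNA-binding protein gene Lrpprc and the elongation factor genes Gfm1 and Gfm2 were called lower, beside the same shares of all genes.

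Of 13 nuclear regulators, 0 were called higher and 4 lower, beside 12.5% and 10.7% of all genes, namely Nrf1, Pprc1, Esrrb and Epas1, of which Esrrb is also on the pluripotency list. Nrf1, which activates many respiratory genes, had 86.2 and 85.5 CPM in d0, then 62.7 and 63.2 in d3F and 35.1 and 49.9 in d5FS (log2 fold change from d0 to d5FS -1.01 ± 0.29, SE; adjusted p = 0.0387, edgeR's quasi-likelihood test). From d0 to d3F, Slc25a31, Esrrb and Epas1 were called lower, beside 1.9% of all genes. From d3F to d5FS none of the 80 listed genes was called, beside 1.54% of all genes.

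Promoters were searched for letters known from factors of respiratory genes, on both strands, in the 300 bases from 250 before to 50 after each start in RefSeq on GRCm38.p6, where 76 of the 92 members had an entry. The NRF1-type letters GCGCATGC occurred in 12 of 76 members (15.8%) and 3.05% of all 27025 genes, the ETS-type letters CCGGAAG in 17 members (22.4%) and 9.93% of genes, and the YY1-type letters AAGATGGC in 11 members (14.5%) and 3.19% of genes. The 250 bases before the start are shown for Ndufa6 (chr15:82354292-82354541, minus strand), the called gene that rose, and for the called subunit c gene Atp5g1 (chr11:96075632-96075881, minus strand), with the matched letters in capitals.
Ndufa6: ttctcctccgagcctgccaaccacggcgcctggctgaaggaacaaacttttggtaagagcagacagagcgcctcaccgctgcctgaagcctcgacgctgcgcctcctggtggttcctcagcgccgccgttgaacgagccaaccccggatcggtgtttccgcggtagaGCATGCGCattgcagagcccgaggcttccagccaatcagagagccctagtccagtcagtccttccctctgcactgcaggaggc
Atp5g1: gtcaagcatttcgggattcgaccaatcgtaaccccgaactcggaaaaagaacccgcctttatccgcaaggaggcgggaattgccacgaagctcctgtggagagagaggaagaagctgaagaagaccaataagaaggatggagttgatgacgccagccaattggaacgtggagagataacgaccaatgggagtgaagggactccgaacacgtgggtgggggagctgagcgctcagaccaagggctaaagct
Ndufa6 held 1 NRF1-type match, on the reverse strand, and Atp5g1 held none of the 3 in this window. The called gene Atp5sl, not shown, has 2 start sites in RefSeq and held a YY1-type match in the window of each. A match describes letters and no binding.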

How the data were processed

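Samples were grouped by population from their titles. The authors aligned paired-end reads to mm10 with STAR and quantified genes with RSEM, and versions are not given in the sources used here. The methods describe the libraries as depleted of ribosomal RNA, while the sample list names mRNA and total RNA libraries. The authors deposited expected counts, which are RSEM estimates of fragments per gene and not normalized, TPM values, FPKM values (not used) and effective lengths in bases.

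Expected counts were rounded to whole numbers. Genes were kept by filterByExpr of edgeR 4.0.16 (R 4.3.3), which left 14539, and scaled by TMM with factors of 0.87717 to 1.0822. All 6 samples entered a single quasi-likelihood fit (glmQLFit and glmQLFTest) with population as the only term, which left 3 residual degrees of freedom. Calls required an adjusted p (Benjamini-Hochberg, over all genes tested) under 0.05. The SE was obtained from each log2 fold change and its F statistic. With 2 samples against 2 the smallest exact permutation p is 0.333, so none was run. The scripts were tested on simulated data. Log2 CPM of replicate differences used a prior count of 2.

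The genes named were those called, the 6 highest and 6 lowest members from d0 to d5FS, alternative genes of a subunit, core or catalytic subunits, members that failed the filter, and called genes of the pathway lists. A few others are named as examples and were chosen after their values were seen. Values of 1 gene covered by this rule are not reported here. The members and lists were chosen with earlier results of these data known. Alternatives covered scaling, filters, DESeq2 1.42.0, length correction, a replicate block, subsets of genes or samples, and leaving out each sample. Figures used matplotlib 3.10.9.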

Additional observations from a re-analysis of the deposited data

How the results depend on the processing

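Calls depended on the test and on single samples. The share of all genes called moved with the setting too, being 23.3% from d0 to d5FS without the replicate block and 37.6% with it. Counts below that stand without such a share describe the settings and not the members or lists. From d0 to d3F the number of members called was 0 by edgeR's quasi-likelihood test and 1 (Ndufa4l2) with no filter on low counts, with the DESeq2 Wald test or with the replicate block. From d0 to d5FS it was 4, and became 8 with no filter, with the DESeq2 Wald test or with a length offset, and 0 with DESeq2 against a log2 fold change of 1 or with only the 2 populations compared. With an absolute log2 fold change above 1 as well, it was 8 with no filter, 7 with a length offset, and 0 in both last settings. Without single replicates it ranged from 0 to 5 from d0 to d5FS and stayed at 0 in the other comparisons.

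The replicate numbers 1 and 2 recur in each population, but the labels do not say that a number marks a batch and each comparison holds only 2 pairs, so the tests in the report carry no replicate block. Deviations of same-numbered samples correlated with r = 0.314, 0.324 and 0.278 across genes. With the replicate block, 1, 2 (Atp5b and Sdha) and 16 members were called from d0 to d3F, d3F to d5FS and d0 to d5FS. Of all genes, this fit called 9.69%, 6.98% and 37.6%. Of the 16 members from d0 to d5FS, 7 also passed a log2 fold change of 1. Beside the 4 genes called without the block, the 16 were Atp5a1, Atp5b, Atp5j, Cox7a2l, Ndufaf2, Ndufaf3, Ndufaf4, Ndufb3, Ndufb4, Ndufv1, Sdha and Uqcrc1. With the replicate block and a length offset, 3 members were called between d3F and d5FS and 17 between d0 and d5FS, the latter against 37.9% of all genes.

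Of the 80 genes on the pathway lists, 3, 0 and 16 were called in the 3 comparisons, beside 4.7%, 1.54% and 23.3% of all genes. From d0 to d3F this became 5 with no filter, 1 with DESeq2 against a log2 fold change of 1 and 0 among genes under 1000 bases. From d3F to d5FS it became 1 with no filter, 2 with the block (beside 6.98% of all genes) and 4 with the block and length offset. From d0 to d5FS it became 10 with plain CPM and 1 with DESeq2 against a log2 fold change of 1. It was 7 with only the 2 populations and 2 among genes under 1000 bases. With the block it became 33, with or without the length offset, where the block alone called 37.6% of all genes. Without single replicates it ranged from 0 to 3, stayed at 0, and ranged from 1 (without d5FS replicate 1) to 9 (without d0 replicate 1). The members' median log2 fold change ranged from -0.22 to 0.18, -0.30 to 0.08 and -0.32 to 0.13 in the 3 comparisons without single replicates.

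By TPM the summed log2 ratios from d3F to d5FS moved to -0.72 for complex I core, -0.45 for accessory genes, -0.70 for assembly factors, -0.82 for complex II, -0.54 for complex III, -0.44 for complex IV, -0.73 for ATP synthase and -0.57 for all members. From d0 to d5FS they moved to -0.20 for accessory genes, -0.47 for assembly factors and -0.36 for complex IV, and from d0 to d3F to 0.23 for assembly factors. The median replicate difference was 0.13, 0.10 and 0.29 with plain CPM. The causes were not tested. With 2 samples per population the median SE over members was 0.33 for the log2 change of d5FS over d0.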
